A study of Mus musculus with 6 samples.

Results

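The 10 genes described here encode transcription factors that set monocyte against granulocyte fate in the myeloid lineage. They are Spi1, Irf8, Klf4, Nr4a1, Runx1, Cebpa, Cebpb, Cebpd, Cebpe and Gfi1, and they were chosen by gene symbol from the 34745 genes of the count table. All 10 passed the filter on low counts that left 12537 genes for testing. The study compared RNA of M-MDSCs, the monocytic subset of myeloid-derived suppressor cells, between WT and mTOR-/- mice by RNAseq, with 3 libraries in each group. Both groups were C57BL/6 M-MDSCs induced from bone marrow, which the study's methods describe as a culture with GM-CSF and IL-6. The mTOR-/- mice combined floxed mTOR alleles with Lyz-Cre, in which the lysozyme promoter drives Cre in myeloid cells. No floxed allele or Cre is named for the WT mice, so the presence of Cre and the loss of mTOR cannot be told apart. The sorted cells were defined as CD11b+, Ly6G- and high for Ly6C. Ages, sequencing batches and pooling of mice are not given in the sources used here. The series record gives 3 as the number per group beside the mice, without tying each library to 1 mouse, so p-values measure the spread between these libraries, which may be technical.

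Myeloid progenitors choose between monocytes and granulocytes under a small set of DNA-binding proteins whose relative amounts matter. PU.1, the product of Spi1, and C/EBPα open the myeloid programme, IRF8 and KLF4 favour monocytes, and GFI1 and C/EBPε favour granulocytes. C/EBPβ and C/EBPδ belong to the same leucine zipper family and act when cytokines or inflammation drive myelopoiesis, and C/EBPβ is a known regulator of MDSCs. NR4A1 is an orphan nuclear receptor needed for Ly6C-low monocytes and is also an immediate early gene, and RUNX1 acts in stem and progenitor cells and on the Csf1r locus.

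The mTOR-/- libraries held 12317507 to 12903191 counts in total, and the WT libraries 14066578 to 14768126. The 10 genes took 9801 to 12805 of these counts per library, which is 0.0796% to 0.0910% of the total. A floor of 3 counts was 0.203 to 0.244 CPM, and every member lay far above it in every library. CPM here are counts scaled to the library total and by TMM factors of 0.986 to 1.01, and floors cover counting error only. Mtor itself was at 72.4 ± 3.24 CPM in the mTOR-/- libraries and 65.2 ± 5.01 CPM in the WT libraries, and counts over the whole gene do not test for loss of the floxed exons. Lyz2, a lysozyme gene, was at 1024 ± 153 CPM in mTOR-/- and 3281 ± 840 CPM in WT. Its log2 fold change was -1.68 (edgeR adjusted p = 0.00255), and the part of the Cre allele in it was not tested. Libraries of different groups correlated at 0.934 to 0.967 on the log2 CPM scale, over genes, which do not count as replicates. Those of mTOR-/- replicate 3 with the other 2 libraries of its group were 0.952 and 0.955, against 0.973 between those 2. This library held the highest CPM of its group for 7 of the 10 members. Fits without it are given for these 7 and for Spi1.

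The genes of the sort gate (Itgam, Ly6c1, Ly6c2 and Ly6g) were all measured, and beside them Ptprc, Ccr2 and Csf1r, which are not part of the gate. Itgam, which encodes CD11b, was at 831.5 ± 191.0 CPM in the mTOR-/- libraries and 926.9 ± 49.9 CPM in the WT libraries. Ptprc, which encodes CD45, and Ccr2, a chemokine receptor of monocytes, had log2 fold changes of 0.20 and 0.65 that did not pass the test (edgeR adjusted p = 0.260 and 0.174). Of the Ly6C genes, Ly6c2 was lower in the mTOR-/- libraries, at 87.3 ± 15.9 against 174.4 ± 55.5 CPM (edgeR adjusted p = 0.0426), and Ly6c1 had a log2 fold change of 0.28 (adjusted p = 0.535). Ly6g, whose product the gate requires to be absent, was detected at 10.7 to 15.1 CPM in mTOR-/- and at 0.853 to 5.06 CPM in WT. The Ly6g groups did not overlap, and its log2 fold change was 2.27 (edgeR adjusted p = 0.0365). Csf1r, the M-CSF receptor, was higher in mTOR-/-, with a log2 fold change of 0.50 (adjusted p = 0.0136). The call on Ly6g was lost without any 1 library other than WT replicate 3. That on Ly6c2 was lost without mTOR-/- replicate 1 or 2 or WT replicate 1 or 3, and that on Csf1r without any 1 of the WT libraries.

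Promoter windows from RefSeq (build GRCm38.p6, 250 bases before to 50 after a start site) were found for 7 of the 10 genes, as 10 windows. None was found for Spi1, Cebpd and Cebpe. The windows were read on both strands for short core letters of the sites that the members themselves bind, and also for the CRE letters. In all 32851 windows, the C/EBP letters TTGCNNAA occurred in 10.8%, the PU.1 letters GAGGAAG in 13.6% and the interferon response letters GAAANNGAA in 8.56%. The GFI1 letters AAATCNNNG occurred in 10.6% of windows, the RUNX letters TGTGGTT in 5.27% and the KLF letters CCACACCC in 3.56%. The nuclear receptor letters AAAGGTCA occurred in 1.51% and the CRE letters TGACGTCA in 1.79%. Among the members, the C/EBP letters were found in 1 window of Gfi1 and the RUNX letters 2 times in 1 window of Runx1, and the matches did not overlap each other.

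Shown here are the windows of the C/EBP genes that had one, 1 of 2 windows of Irf8, which had the largest fold change among the members, and the windows with a match of Gfi1 and Runx1. A further window of each of Irf8, Gfi1 and Runx1, without a match, is not shown. The last 3 were chosen after their values were seen. Capitals mark a match, 143 bases before the start site in Gfi1 and 28 and 36 bases after it in Runx1. A match of letters is a description and does not show that a factor binds there. The windows lie at chr7:35119043-35119342 on the forward strand (Cebpa), chr2:167688665-167688964 on the forward strand (Cebpb) and chr8:120736108-120736407 on the forward strand (Irf8). Those of Gfi1 and Runx1 lie on the reverse strand at chr5:107725756-107726055 and chr16:92826025-92826324.
Cebpa: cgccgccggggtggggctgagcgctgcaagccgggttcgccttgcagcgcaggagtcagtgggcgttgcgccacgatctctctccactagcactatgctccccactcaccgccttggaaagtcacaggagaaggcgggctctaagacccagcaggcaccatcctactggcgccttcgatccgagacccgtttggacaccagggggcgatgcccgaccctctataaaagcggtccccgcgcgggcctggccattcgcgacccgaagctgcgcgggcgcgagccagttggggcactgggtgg
Cebpb: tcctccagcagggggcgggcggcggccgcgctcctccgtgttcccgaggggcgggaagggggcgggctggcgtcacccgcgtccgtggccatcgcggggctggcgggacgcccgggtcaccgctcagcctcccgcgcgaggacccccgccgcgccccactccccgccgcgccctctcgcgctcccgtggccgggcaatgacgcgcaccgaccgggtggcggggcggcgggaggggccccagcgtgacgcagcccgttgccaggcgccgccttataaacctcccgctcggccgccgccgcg
Irf8: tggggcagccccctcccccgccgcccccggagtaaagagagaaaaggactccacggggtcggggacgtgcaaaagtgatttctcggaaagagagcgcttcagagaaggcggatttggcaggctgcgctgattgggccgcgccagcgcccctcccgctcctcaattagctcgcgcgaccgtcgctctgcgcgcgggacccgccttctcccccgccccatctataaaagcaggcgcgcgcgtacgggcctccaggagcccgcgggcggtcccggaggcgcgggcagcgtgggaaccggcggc
Gfi1: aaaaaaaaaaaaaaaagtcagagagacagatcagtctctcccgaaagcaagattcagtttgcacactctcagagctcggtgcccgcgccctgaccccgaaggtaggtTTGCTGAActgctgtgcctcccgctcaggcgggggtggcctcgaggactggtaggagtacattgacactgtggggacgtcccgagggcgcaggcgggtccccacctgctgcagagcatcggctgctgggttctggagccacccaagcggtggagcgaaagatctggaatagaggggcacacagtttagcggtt
Runx1: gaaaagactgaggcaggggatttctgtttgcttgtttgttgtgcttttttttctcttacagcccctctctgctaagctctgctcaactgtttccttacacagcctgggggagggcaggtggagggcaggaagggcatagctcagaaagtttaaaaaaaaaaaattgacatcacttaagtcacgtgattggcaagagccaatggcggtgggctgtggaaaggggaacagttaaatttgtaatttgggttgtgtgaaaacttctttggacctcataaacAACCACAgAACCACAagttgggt

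The first question was whether the loss of mTOR in these cells went with a different balance of lineage factors. None of the 10 genes passed an adjusted p of 0.05 with edgeR's quasi-likelihood test. In the same test 2.18% of all tested genes passed in the direction higher in mTOR-/- and 1.87% in the direction lower. With a fold change of 2 as a further condition, 0 of the 10 members and 1.69% of all genes passed. At an unadjusted p under 0.05 there were 5 members, Irf8, Cebpd, Cebpe, Gfi1 and Cebpb, against 21.2% of all tested genes. DESeq2 called 3 of the members (Irf8, Cebpd and Cebpe), edgeR's exact test 2 (Irf8 and Cebpd) and limma on log2 FPKM 1 (Cebpd). Of all tested genes, DESeq2 called 1144 (9.13%) and the exact test 1009 (8.05%), both directions together, against 507 with the quasi-likelihood test. Limma called fewer, 427 (3.41%) with a pseudocount of 0.1 and 460 (3.67%) with one of 1. Calls on Irf8, Cebpd and Cebpe thus differed between methods.

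The differences were small. Log2 fold changes, given as mTOR-/- over WT, ran from -0.50 for Cebpe to 0.71 for Irf8, with 3 members above 0 and 7 below. Their median was -0.22, beside 0.00 for all tested genes, and the median size without sign was 0.32, beside 0.22 for all tested genes. The 95% interval lay within 1 of 0 for 9 of the 10 genes, and that of Irf8 reached 1.20. The CPM of the groups did not overlap for 3 members that were higher in mTOR-/- (Irf8, Cebpd and Gfi1) and 3 that were lower (Cebpe, Klf4 and Nr4a1). Such separation was found in 14.5% of all tested genes in the higher and 13.9% in the lower direction.

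**Figure D1:**
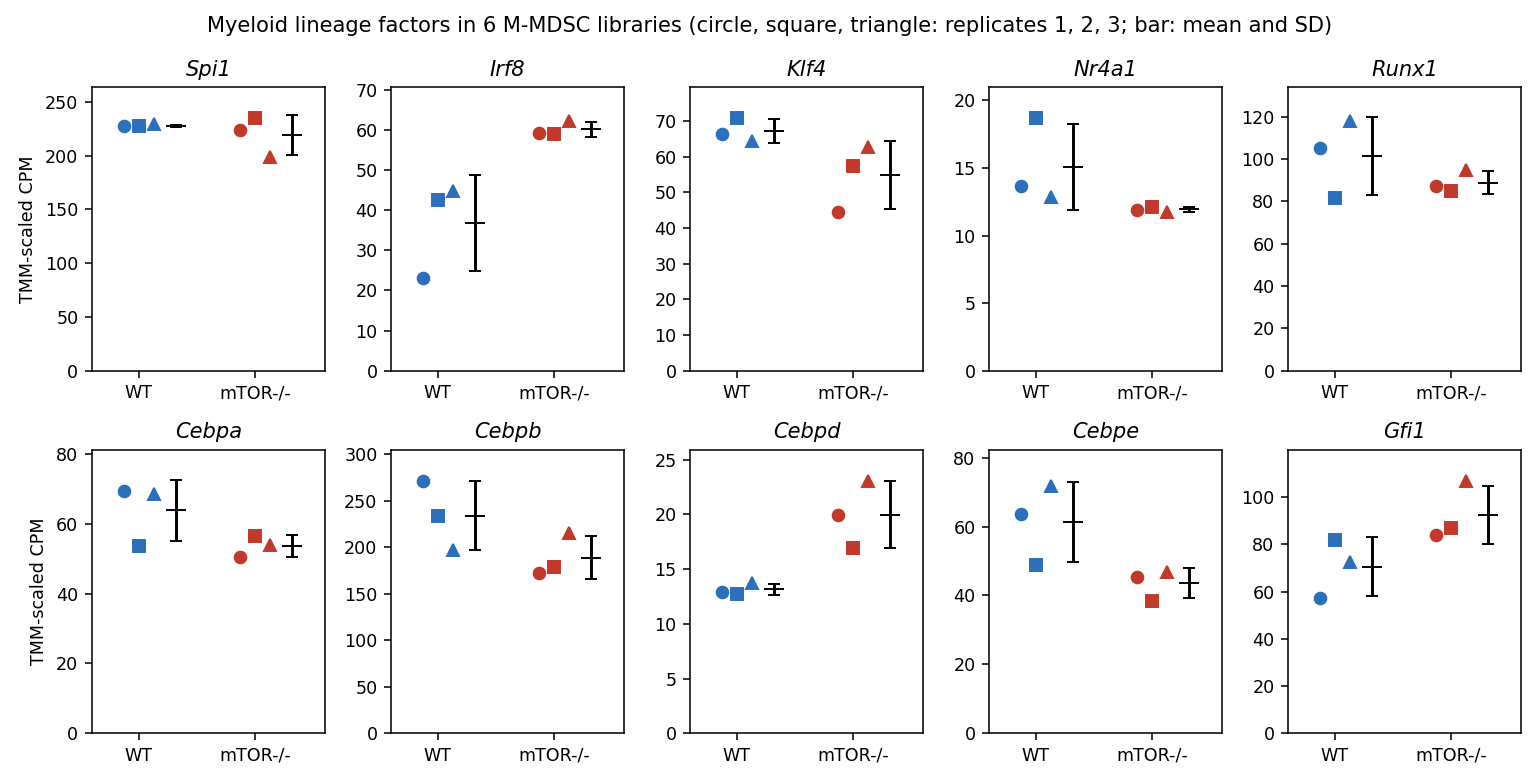
CPM after TMM scaling (y axis, linear from 0, a separate scale for each gene) of the 10 lineage factors in the 3 WT (blue) and 3 mTOR-/- (red) libraries, with circles, squares and triangles for replicates 1, 2 and 3 and black bars for the mean ± SD. Irf8, Cebpd and Gfi1 were higher in every mTOR-/- library, and Cebpe, Klf4 and Nr4a1 were lower in every one, while the WT values of Irf8 spread from 23.1 to 44.7 CPM.

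Spi1 (ENSMUSG00000002111, chromosome 2, 91082390 to 91115756) encodes PU.1, the ETS factor that monocytes and granulocytes both need. It was at 224.3, 234.8 and 199.1 CPM in mTOR-/- replicates 1, 2 and 3 and at 227.2, 227.7 and 229.1 CPM in the WT replicates. The WT libraries were nearly equal, with a coefficient of variation of 0.416% against 8.35% in mTOR-/-, and the mTOR-/- libraries fell on both sides of them. The log2 fold change was -0.06 with a standard error of 0.09, and its 95% interval ran from -0.26 to 0.15 (edgeR adjusted p = 0.773). This was the narrowest interval of the 10 genes. Without mTOR-/- replicate 3, the lowest of the 6, the log2 fold change was 0.00.

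Irf8 (ENSMUSG00000041515, chromosome 8, 120736358 to 120756694) encodes the interferon regulatory factor that steers progenitors to monocytes and dendritic cells. The mTOR-/- libraries held 59.1, 59.0 and 62.2 CPM, and the WT libraries 23.1, 42.6 and 44.7 CPM. The groups did not overlap, and the WT libraries varied far more than the mTOR-/- libraries, with coefficients of variation of 32.4% and 3.04%. The mean was 1.63 times higher in mTOR-/-, with a log2 fold change of 0.71 (standard error 0.22, 95% interval 0.22 to 1.20). Its adjusted p was 0.109 with edgeR's quasi-likelihood test, 0.0267 with DESeq2 and 0.0433 with edgeR's exact test. WT replicate 1 carried much of the difference, because without it the log2 fold change was 0.45 (edgeR adjusted p = 0.153). The unadjusted edgeR p was 0.00693 without that library and 0.00975 with all libraries. The fit without it called 193 genes, against 507. Without mTOR-/- replicate 3 the log2 fold change was 0.68.

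Markers of dendritic cells, which also use Irf8, were higher in sum. The summed CPM of the 9 markers was 521.6 to 659.5 in mTOR-/- and 130.9 to 294.4 in WT, without overlap. Of the 7 that were tested, 3 rose (H2-Ab1, H2-Aa and Ccr7) and none fell, against 2.18% and 1.87% of all tested genes. None of the 9 was at 0 in all libraries. Itgax and Zbtb46 had log2 fold changes of 0.92 and 0.81, and Flt3 and Clec9a of -0.46 and -0.39, none of which passed. The count of 3 was 1 without mTOR-/- replicate 1 or WT replicate 2, and only H2-Ab1 was called without any 1 library. Their part in the Irf8 values was not tested. In bulk RNA, a change in the number of cells of a type and a change in RNA per cell cannot be told apart.

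Klf4 (ENSMUSG00000003032, chromosome 4, 55527143 to 55532466) encodes a zinc finger factor of the monocyte branch. The mTOR-/- replicates held 44.4, 57.4 and 62.7 CPM, and the WT replicates 66.5, 70.9 and 64.4 CPM. All mTOR-/- values were below all WT values, but the nearest pair, 62.7 and 64.4, lay close together. Its log2 fold change was -0.29 (standard error 0.14, 95% interval -0.61 to 0.02, edgeR adjusted p = 0.261), and it was -0.17 without mTOR-/- replicate 1 and -0.41 without mTOR-/- replicate 3 (adjusted p = 0.150).

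Nr4a1 (ENSMUSG00000023034, chromosome 15, 101266846 to 101274792) encodes the nuclear receptor of Ly6C-low monocytes. Its values were 11.9, 12.1 and 11.8 CPM in mTOR-/- and 13.7, 18.7 and 12.8 CPM in WT. The groups did not overlap, though the WT mean of 15.1 ± 3.19 CPM was raised by replicate 2. The log2 fold change of -0.34 (95% interval -0.77 to 0.10, edgeR adjusted p = 0.354) was -0.15 without that library.

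Runx1 (ENSMUSG00000022952, chromosome 16, 92601466 to 92826149) was at 87.2, 84.7 and 94.8 CPM in mTOR-/- and 105.0, 81.7 and 117.8 CPM in WT. The WT libraries lay on both sides of the mTOR-/- libraries. Its log2 fold change was -0.19 (95% interval -0.50 to 0.12, edgeR adjusted p = 0.458), with -0.07 without WT replicate 3 and -0.25 without mTOR-/- replicate 3. An antisense gene, Gm26626, shares 106 exon bases with it and had 364 to 561 counts, so reads there could belong to either gene if strand was not used in counting.

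The C/EBP genes had fitted changes of both signs. Cebpa (ENSMUSG00000034957, chromosome 7, 35119293 to 35121928), the factor of the granulocyte-monocyte progenitor, was at 50.4, 56.5 and 53.9 CPM in the mTOR-/- libraries. The WT libraries held 69.2, 53.6 and 68.5 CPM, so that WT replicate 2 fell among the mTOR-/- values. Its fitted log2 fold change was -0.25 (95% interval -0.54 to 0.04, edgeR adjusted p = 0.300), and without WT replicate 2 it was -0.36.

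Cebpb (ENSMUSG00000056501, chromosome 2, 167688915 to 167690418) encodes the factor of cytokine-driven granulopoiesis. It was at 172.5, 178.4 and 215.2 CPM in mTOR-/- and at 271.5, 232.9 and 197.1 CPM in WT. The groups overlapped through mTOR-/- replicate 3 and WT replicate 3. Its fitted log2 fold change was -0.31 (95% interval -0.61 to -0.01, unadjusted p = 0.0463, edgeR adjusted p = 0.228), and it was -0.42 without mTOR-/- replicate 3 and -0.20 without WT replicate 1. The activating and inhibiting forms of C/EBPβ are made from 1 mRNA by a choice of start codon, so gene counts cannot separate them. Tmem189, on the opposite strand, shares 312 bases of the only exon of Cebpb (167689511 to 167689822) and had 3266 to 4701 counts.

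Cebpd (ENSMUSG00000071637, chromosome 16, 15887286 to 15888466), a gene that inflammatory signals induce, was the C/EBP gene with higher values in mTOR-/-. It had 20.0, 17.0 and 23.0 CPM in the mTOR-/- libraries, from 245, 220 and 301 counts. The WT libraries held 12.9, 12.8 and 13.8 CPM, from 182, 187 and 193 counts. Every mTOR-/- value was above every WT value, and the mTOR-/- mean was 1.52 times the WT mean. The log2 fold change was 0.60 (standard error 0.17, 95% interval 0.22 to 0.98), and its unadjusted p of 0.00565 was the lowest among the members. Its adjusted p was 0.0840 with edgeR's quasi-likelihood test, 0.0418 with DESeq2 and 0.0409 with edgeR's exact test. Limma gave an adjusted p of 0.0430 on log2(FPKM + 0.1). Without mTOR-/- replicate 3 the log2 fold change was 0.48 (edgeR adjusted p = 0.155). The counted interval is shorter than the gene in the GENCODE M21 annotation, which ends at 15891031, so reads beyond 15888466 are outside these counts.

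Cebpe (ENSMUSG00000052435, chromosome 14, 54710363 to 54712174), the C/EBP factor of secondary granule genes, had 45.2, 38.5 and 46.7 CPM in mTOR-/- and 63.7, 48.8 and 71.7 CPM in WT. The groups did not overlap, and WT replicate 2 lay close to the mTOR-/- values. The WT mean was 1.41 times the mTOR-/- mean, with a log2 fold change of -0.50 (standard error 0.16, 95% interval -0.85 to -0.14). Its adjusted p was 0.119 with edgeR's quasi-likelihood test and 0.0495 with DESeq2. Without WT replicate 3 the log2 fold change was -0.37 (edgeR adjusted p = 0.388), and it was -0.64 without WT replicate 2 and -0.56 without mTOR-/- replicate 3.

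Gfi1 (ENSMUSG00000029275, chromosome 5, 107716657 to 107726036), a repressor needed for neutrophil development, had 83.8, 86.9 and 106.6 CPM in mTOR-/- and 57.4, 81.8 and 72.4 CPM in WT. All mTOR-/- values were above all WT values, and the nearest pair was 83.8 and 81.8. The log2 fold change was 0.39 (95% interval 0.05 to 0.73, unadjusted p = 0.0289, edgeR adjusted p = 0.183). It was 0.27 without mTOR-/- replicate 3 and 0.25 without WT replicate 1. The 2 granulocyte factors of the list, Gfi1 and Cebpe, thus had fitted changes of opposite sign, as did the 2 monocyte factors Irf8 and Klf4.

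**Figure D2:**
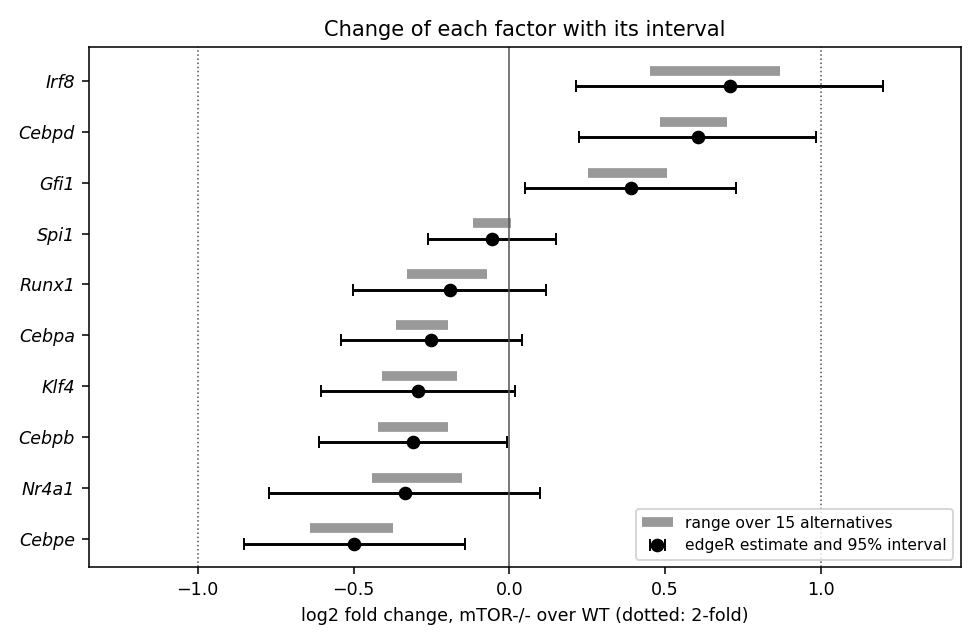
Log2 fold change of mTOR-/- over WT (x axis) for each of the 10 factors, with the edgeR estimate as a point, its 95% interval as a line, and the range over 15 other ways of processing as a grey bar. Every grey bar stays on 1 side of 0 except that of Spi1, which ends at 0.00, and of the intervals that of Irf8 alone passes the dotted line of a doubling.

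Levels can be compared between genes only per length, and for this the deposited FPKM were used. In the WT libraries the order was Cebpb (154.4 ± 25.7 FPKM), Spi1 (68.5 ± 0.274) and Cebpe (49.2 ± 9.23), with no overlap between neighbours, also towards the next gene. Klf4 (15.1), Cebpa (13.2), Gfi1 (11.7) and Cebpd (11.1) followed, each overlapping its neighbour. Nr4a1 (6.04), Runx1 (5.53) and Irf8 (4.20) came last and overlapped in the same way. Among the tested genes, Cebpb stood at percentile 98.0 of mean FPKM over all libraries and Irf8, Nr4a1 and Runx1 near the middle, at percentiles 49.7, 49.1 and 48.0.

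In the mTOR-/- libraries the first 3 genes were the same, with Cebpb at 126.3 ± 16.4, Spi1 at 66.8 ± 5.35 and Cebpe at 35.3 ± 3.55 FPKM. Cebpd (17.1) and Gfi1 (15.5) then stood above Klf4 (12.5) and Cebpa (11.3), with ranges that overlapped between neighbours. Irf8 (6.97) stood above Runx1 (4.91) and Nr4a1 (4.85) without overlap. The gene lengths behind the FPKM exceed the annotated exons of some genes, among them Cebpa, at 4787 against 2636 bases. Per kilobase of annotated exons, the first 3 positions were the same in both groups. In the WT libraries Cebpa, Gfi1 and Klf4 then stood at 24.2, 22.1 and 22.1 CPM per kilobase, and in the mTOR-/- libraries Gfi1 stood at 29.0, above Cebpa (20.3), Klf4 (18.0) and Cebpd (16.9). The last 3 places in WT also changed on this scale, to Runx1 (8.44), Irf8 (5.22) and Nr4a1 (4.56), of which Irf8 and Nr4a1 overlapped.

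Ratios between opposing or partner factors were taken in each library on the log2 FPKM scale, as a description. The ratio of Spi1 to Cebpa was 2.57 ± 0.14 in the mTOR-/- and 2.38 ± 0.21 in the WT libraries. That of Irf8 to Gfi1 was -1.15 ± 0.15 against -1.52 ± 0.31, and that of Klf4 to Cebpe was -1.51 ± 0.31 against -1.68 ± 0.36. All of these ratios overlapped between the groups.

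The make-up of the C/EBP family was described by the share of each gene. Of the summed FPKM of Cebpa, Cebpb, Cebpd, Cebpe and Cebpg, Cebpd took 8.49%, 7.41% and 8.37% in mTOR-/- and 3.99%, 4.61% and 4.99% in WT. Cebpg, which encodes a partner without an activation domain of its own, took 9.65 ± 0.62% against 7.35 ± 0.90%. Neither share overlapped between the groups, and each kept that separation per kilobase of annotated exons, where Cebpd took 7.50% and 4.23%. Cebpb took 60.0 ± 2.14% and 62.6 ± 5.57%, Cebpe 16.9 ± 1.28% and 20.1 ± 4.20%, and Cebpa 5.40 ± 0.64% and 5.39 ± 0.69%, all overlapping. The shares add to a whole, so a change in 1 of them moves the others.

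**Figure D3:**
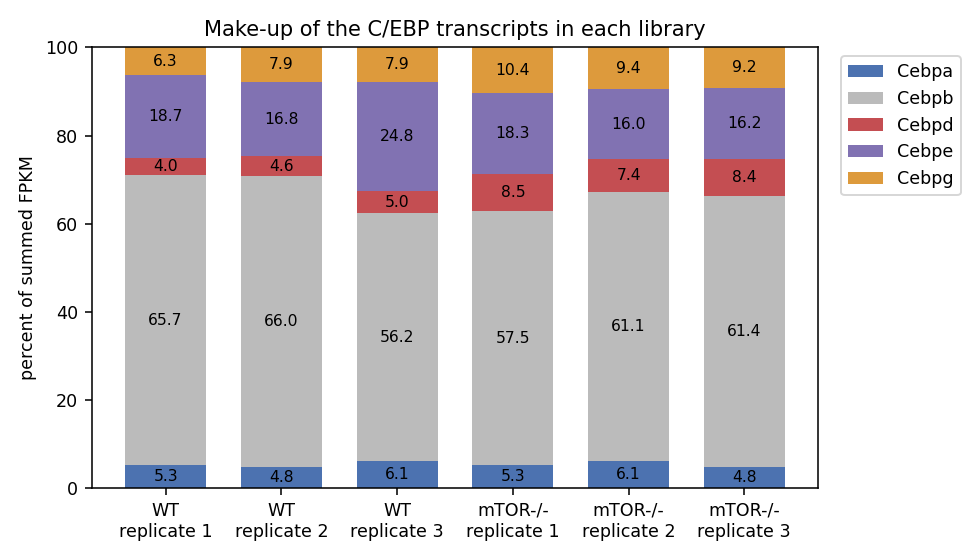
Share of each of 5 C/EBP genes in their summed FPKM (y axis, percent, 0 to 100) in each of the 6 libraries, stacked in 1 bar per library. The red part, Cebpd, is 3.99% to 4.99% in the WT bars and 7.41% to 8.49% in the mTOR-/- bars, while the grey part, Cebpb, is the largest in every bar.

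The other factors of the same networks were described from a list of 54 genes, of which 52 were tested. Higher in mTOR-/- were 3 of them, lower were 2, and 47 did not pass, against 2.18% and 1.87% of all tested genes. The median log2 fold change of the list was 0.01. In sum, the list held 5500 to 5941 CPM in mTOR-/- and 5194 to 5374 CPM in WT, without overlap. Egr1, an immediate early zinc finger factor of the monocyte branch, rose from 613.3 ± 27.3 to 1053 ± 136 CPM (log2 fold change 0.78, edgeR adjusted p = 0.00651). Trib1, a pseudokinase that promotes the degradation of C/EBPα protein, rose to 50.6 to 59.7 CPM in mTOR-/- from 28.0 to 31.6 CPM in WT (0.82, adjusted p = 0.00910). Irf4, the closest relative of Irf8, rose from 177.1 ± 6.81 to 232.4 ± 3.90 CPM (0.39, adjusted p = 0.0325).

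Gata2, a factor of progenitors, mast cells and basophils, fell from 368.5 ± 50.9 to 212.8 ± 22.0 CPM (log2 fold change -0.79, edgeR adjusted p = 0.00973). Atf3, a stress-induced repressor, fell from 165.6 ± 7.24 to 120.7 ± 6.64 CPM (-0.46, adjusted p = 0.0257). The most abundant of the rest were Klf6, Id2, Ddit3 and Irf2, with log2 fold changes of 0.24, 0.09, -0.29 and 0.18 that did not pass. Egr1 and Trib1 lost their call only without WT replicate 3, Gata2 without WT replicate 1 or 2, and Irf4 and Atf3 without any 1 library other than mTOR-/- replicate 3. Irf4 and Atf3 also lost it with the replicate number as a block (edgeR adjusted p = 0.127 and 0.0867). The count of 5 became 2 without each of the WT libraries.

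The summed CPM of 9 mast cell and basophil markers, Gata2 among them, was 532.0 to 586.7 in the mTOR-/- and 1519 to 1592 in the WT libraries. Of the 8 tested, 5 fell and none rose, against 1.87% and 2.18% of all tested genes. Mcpt4 was at 0 in all libraries. The count of 5 was 3 without WT replicate 1. Their part in the values of Gata2 was not tested. Summed markers of progenitors were 223.8 to 264.9 against 313.7 to 382.4 CPM, with 2 of 7 lower (Kit and Ctsg) and 1 without WT replicate 1 or 3. Kit is also among the mast cell and basophil markers, and Ctsg among the primary granule genes below. Of the 7 progenitor markers, 4 were fitted higher and 3 lower, with a median log2 fold change of 0.03.

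Gene lists that the members are known to act on were counted in the same fit, in which 2.18% of all tested genes rose and 1.87% fell. The lists were chosen with earlier results of these data known. Of 11 PU.1 target genes, 5 rose and none fell, with a median log2 fold change of 0.41, while Spi1 itself had a log2 fold change of -0.06. Cd14, the lipopolysaccharide co-receptor, rose from 111.8 ± 5.86 to 215.9 ± 17.9 CPM (0.95, edgeR adjusted p = 0.00128). Csf1r rose from 277.5 ± 13.7 to 391.1 ± 5.46 CPM (0.50, adjusted p = 0.0136). Cybb, a subunit of the NADPH oxidase, had a log2 fold change of 0.56 (adjusted p = 0.0220) and Csf3r, the G-CSF receptor, one of 0.63 (adjusted p = 0.0314). The fifth was Csf2ra, named after its values were seen (0.84, adjusted p = 0.0477). The other 6 did not pass, and 5 of them were fitted lower, from -0.24 for Btk, whose groups did not overlap, to -0.05 for Tlr4. The summed CPM of the list overlapped, at 6606 to 7202 in mTOR-/- and 6334 to 6952 in WT. Cd14 was called without any 1 library, and the count fell to 1 without any 1 of the WT libraries and to 3 without mTOR-/- replicate 1. With the replicate number as a block the count was also 1.

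Of 10 tested monocyte genes, 3 rose and 1 fell, with a median log2 fold change of 0.39. In sum, the list held 2055 to 2340 CPM in mTOR-/- and 1386 to 1785 CPM in WT, without overlap. Fn1, fibronectin, rose from 288.1 ± 70.0 to 737.4 ± 80.2 CPM (1.36, edgeR adjusted p = 0.00342), Csf1r was again among them, and F13a1, a coagulation factor subunit, had a log2 fold change of 1.12 (adjusted p = 0.0223). The gene that fell was Ly6c2. The count of 4 was 1 without WT replicate 1 or 3 and 2 without WT replicate 2 or mTOR-/- replicate 1, and Fn1 was called in all of these fits. Among 5 tested genes of Ly6C-low monocytes, the cells that need Nr4a1, 1 rose (Eno3, an enolase, 0.92, adjusted p = 0.0375) and the median was -0.01. In sum, this list held 254.1 to 274.6 CPM in mTOR-/- and 268.4 to 303.5 CPM in WT, with overlap. Eno3 lost its call without any 1 library and under the block. Spn, Cd36 and Itgal, next by p, had log2 fold changes of -0.33, 0.48 and -0.03 that did not pass.

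Granule genes were counted in 2 lists. The primary granule list held 6 genes, which progenitors under C/EBPα express. Hk3, a hexokinase, and Ms4a3, a membrane protein, were on it but do not encode granule proteins. Of the 6 genes, 1 fell (Ctsg, cathepsin G, -1.39, edgeR adjusted p = 0.0207) and the median was -0.11. Their summed CPM overlapped, at 776.4 to 1045 in mTOR-/- and 790.1 to 849.8 in WT. Ctsg lost its call without WT replicate 1 or 3. Hk3, Elane and Ms4a3 had log2 fold changes of 0.17, 0.39 and -0.38 that did not pass.

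Of 9 secondary granule genes, which C/EBPε controls, 3 fell and 1 rose, with a median log2 fold change of -0.42. Whether past the test or not, 4 of the 9 were fitted higher and 5 lower. The summed CPM of the list overlapped, at 3365 to 4027 in mTOR-/- and 3004 to 3398 in WT. Ltf, lactoferrin, fell from 18.1 ± 1.05 to 4.40 ± 1.23 CPM (-2.04, edgeR adjusted p = 0.00214), and Ngp, a granule protein of the cathelicidin family, and Itgb2l, a neutrophil integrin subunit, had log2 fold changes of -0.56 (adjusted p = 0.0343) and -1.42 (adjusted p = 0.0477). Chil3, a chitinase-like protein that macrophages also make, rose (0.50, adjusted p = 0.0298). Ltf was called without any 1 library. The count of 4 was 1 without mTOR-/- replicates 1 or 2 or WT replicates 1 or 3 and 2 without WT replicate 2, and it was 1 under the block. Neutrophil markers, which share Ltf and Ngp, summed to 2564 to 2889 against 2253 to 2566 CPM and overlapped. Of these 10 markers 3 rose and 2 fell, none was at 0, and their part in the granule lists was not tested. Those that rose were 1 without mTOR-/- replicate 1 or 3, 2 without mTOR-/- replicate 2 or WT replicate 3, and 0 without WT replicate 1 or 2. Those that fell were 1 without mTOR-/- replicate 1 or 2 or WT replicate 1 or 3.

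Of 7 tested effector genes linked to C/EBPβ, 3 rose and 1 fell, with a median log2 fold change of 0.36. In sum, the list held 1197 to 1342 CPM in mTOR-/- and 1008 to 1063 CPM in WT, without overlap. Nos2, the inducible nitric oxide synthase, fell from 8.78 ± 0.51 to 0.853 ± 0.395 CPM (-3.34, edgeR adjusted p = 0.00255). Il1b, the cytokine interleukin 1β, S100a8, a subunit of calprotectin, and Ptgs2, the inducible cyclooxygenase, rose, with log2 fold changes of 1.29, 0.62 and 0.56 (adjusted p = 0.0291, 0.0305 and 0.0464). Il10 was at 0 in all libraries and was not tested. The list thus held changes in both directions beside a Cebpb log2 fold change of -0.31. Nos2 was called without any 1 library, and the count of 4 was 1 without mTOR-/- replicate 1 or WT replicates 1 or 2 and 2 without mTOR-/- replicate 3 or WT replicate 3.

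Of 15 immediate early genes, the class to which Nr4a1 belongs, 5 rose and 1 fell (Atf3), with a median log2 fold change of 0.61. In sum, the list held 4779 to 5626 CPM in mTOR-/- and 3802 to 3991 CPM in WT, without overlap. Ier2, a nuclear protein of the early growth response, rose from 281.6 ± 26.5 to 493.2 ± 57.1 CPM (0.81, edgeR adjusted p = 0.00548). Egr1 was again among them, and Btg2, an antiproliferative gene, and Jun, a subunit of AP-1, had log2 fold changes of 0.78 (adjusted p = 0.0106) and 0.66 (adjusted p = 0.0161). Zfp36, named after its values were seen, was the fifth (0.44, adjusted p = 0.0300). Nr4a1 had a fitted value on the other side of 0, at -0.34. Ier2 was called without any 1 library, and the count of 6 was 2 without WT replicate 1 or 2, 1 without WT replicate 3 and 4 without mTOR-/- replicate 1.

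**Figure D4:**
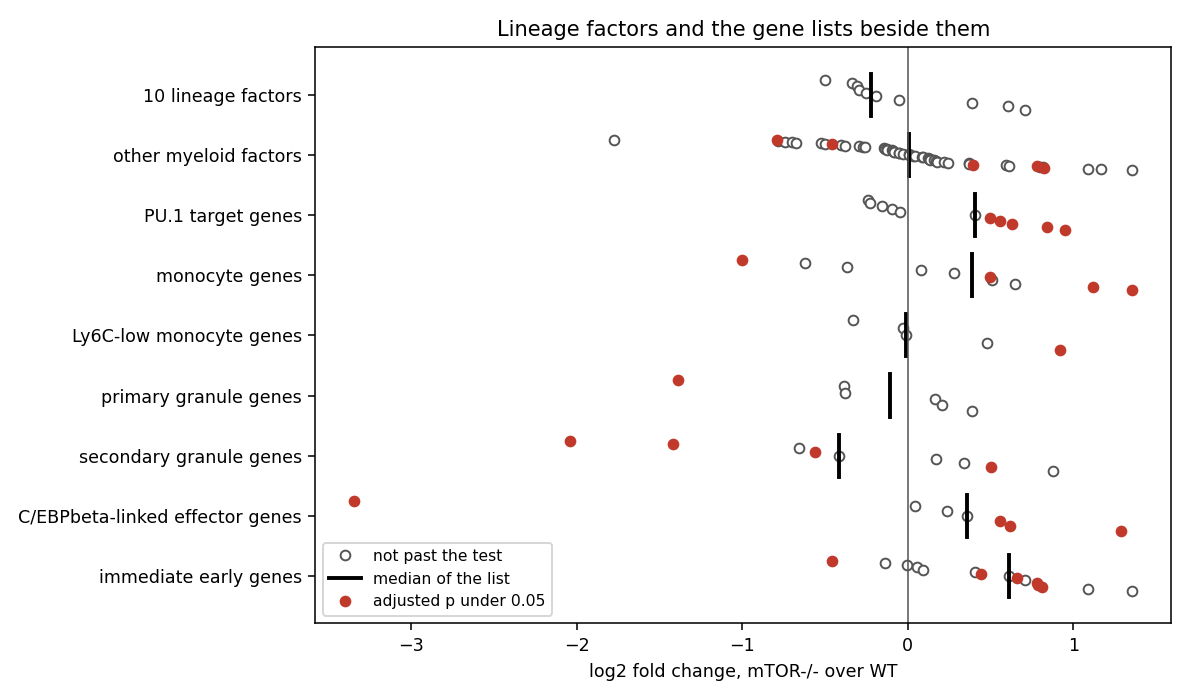
Log2 fold change of mTOR-/- over WT (x axis) of each tested gene in the 10 lineage factors and in 8 lists of related genes (rows), with filled red circles for genes past an adjusted p of 0.05, open circles for the rest, and a black bar for the median of each list. The row of lineage factors has no filled circle and a median of -0.22, and the row of immediate early genes has the highest median, 0.61.

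Markers of other cells were measured beside these values. Among all tested genes, 2.18% were called higher in mTOR-/- and 1.87% lower. Macrophage markers summed to 549.9 to 665.4 CPM in the mTOR-/- and 662.2 to 745.4 CPM in the WT libraries, with 1 of 6 tested higher, and eosinophil markers to 39.6 to 64.1 against 93.4 to 110.2 CPM, with 1 of 3 lower. T cell markers (1.68 to 3.71 against 3.89 to 4.48 CPM) and B cell markers (3.32 to 6.93 against 2.27 to 3.21) were low. So were erythroid markers (2.47 to 3.83 against 6.68 to 11.9), and none of these sums overlapped between the groups. Only 1 of 6 T cell, 2 of 5 B cell and 2 of 7 erythroid markers were tested, and none passed the threshold. Cd3e was at 0 in all libraries.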

How the data were processed

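RNA of WT and mTOR-/- M-MDSCs was sequenced, with 3 libraries per group, and groups and replicate numbers were taken from the sample titles. The deposited count table holds whole-number counts of reads per gene, made by the authors without normalization, for 34745 genes. The authors also deposited FPKM, which are per kilobase of gene and library size, from which gene lengths were computed back. The study's methods name Bowtie2, HTSeq and mm10, while the submitters' processing notes name HISAT2 2.0.4, StringTie 1.3.0 and the builds GRCm38.p4 and mm9. Which of them made these files, and whether counting used strand, is not given in the sources used here. In total, 24 further columns of per-sample values repeat these in the other tables and were not used. The authors' comparison of the groups (mean FPKM, fold change, p and q) was not used.

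The tools were DESeq2 1.42.0, limma 3.58.1 and edgeR 4.0.16 under R 4.3.3. The filter on low counts was filterByExpr (minimum count 10, minimum total 15). Counts were scaled by TMM and compared over the 6 libraries with edgeR's quasi-likelihood test and Benjamini-Hochberg adjustment over 12537 genes, at 0.05. The 95% intervals used the 9.33 degrees of freedom of that fit, the biological coefficient of variation was 19%, and a prior count of 2 served for log2 CPM. An exact permutation test of 3 libraries against 3 cannot go below 0.1. Total counts were 12317507 to 14768126. The steps were tested on simulated data.

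The members and gene lists were chosen with earlier results of these data known. All members were named, with Mtor, Lyz2, the genes of the sort gate, Ptprc, Ccr2 and Csf1r. Of the other myeloid factors, every gene past the threshold and the 4 next by FPKM were named, and of each other list up to 4 genes by lowest adjusted p. Csf2ra, Zfp36, single marker genes and genes at 0 were named after their values were seen. Alternatives were other tests, normalizations and filters, limma on log2(FPKM + 0.1) and log2(FPKM + 1), each library left out, and the replicate number as a block. Leaving libraries out of the list and marker counts, and levels per kilobase of GENCODE M21 exons, were added after the data were seen. Promoters are RefSeq windows of GRCm38.p6.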

Additional observations from a re-analysis of the deposited data

How the results depend on the processing

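Across 15 other ways of processing, 9 of the 10 members kept the sign of their log2 fold change in all, and Spi1 in 14. The number of members past the threshold was 0 with edgeR's quasi-likelihood test, 3 with DESeq2, 2 with edgeR's exact test, and 1 with limma on log2(FPKM + 0.1) and 1 on log2(FPKM + 1). The number was 0 in the other 11, each library left out included. Over these alternatives the adjusted p ran from 0.0267 to 0.191 for Irf8, from 0.0409 to 0.238 for Cebpd and from 0.0495 to 0.388 for Cebpe. Of all genes, 212 passed with a fold of 2, against 357 with DESeq2, 386 with the exact test, 129 with limma on log2(FPKM + 1) and 114 to 229 with 1 library left out. Without the fold condition 507 genes passed, 1144 with DESeq2, 1009 with the exact test and 173 to 513 with 1 library left out.

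The list of other myeloid factors held 9 calls with DESeq2, against 5. With 1 library left out, the calls were 2 to 6 for other myeloid factors, 1 to 5 for PU.1 target genes and 1 to 4 for monocyte genes. They were 0 to 0 for Ly6C-low monocyte genes and 0 to 1 for the primary granule list. They were 1 to 3 for secondary granule genes, 1 to 3 for effector genes linked to C/EBPβ and 1 to 6 for immediate early genes. The cause of these changes was not tested.

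Deviations of libraries with the same replicate number correlated at -0.0764, -0.0252 and -0.0608, and those with different numbers at 7e-04 to 0.058. Whether libraries with the same number share a batch or litter is not given and was not tested. With a replicate block 0 members passed, 164 genes passed with a fold of 2 and 279 without, against 507. Under the replicate block the calls were 1 for PU.1 target genes, 0 for Ly6C-low monocyte genes and 1 for secondary granule genes.

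The 3 libraries per group limit the test to differences well above the spread between libraries, and the intervals of the members leave room for changes of up to 1.20 on the log2 scale. Counts at overlapping exons (Cebpb with Tmem189, Runx1 with Gm26626) and the choice of gene length limit levels between genes.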
